A study of Mus musculus with 14 samples.

Results

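The genes described here are 10 feedback inhibitors of Wnt signalling: Notum, Wif1, Dkk2, Dkk3, Apcdd1, Rnf43, Znrf3, Nkd1, Nkd2 and Axin2. They were chosen by symbol, with earlier results of these data known, from the 19051 genes that a usable probe names. All their probes were taken, which gave 18 of the 45281 probes on the array. Of these, 17 probes of 9 genes were bright enough to be tested, and the single Dkk2 probe was not. Most of these proteins act outside the cell or in its membrane, whereas Nkd1, Nkd2 and Axin2 act inside it, so the 10 are called Wnt feedback inhibitors below.

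The study grew organoids, small epithelial structures in matrix, from intestine of C57Bl mice aged 2 to 3 months and measured RNA on Illumina bead arrays. Apc-Prox1 deleted organoids carried villin-CreER with both Apc and Prox1 flanked by lox sites. Apc-deleted organoids carried villin-CreER with only Apc flanked. All cultures received tamoxifen for 2 days, were then kept for 5 days in medium lacking R-Spondin1, which enhances Wnt signalling, to select cells that had lost Apc, and were harvested 7 days after tamoxifen. Both genotypes therefore lack Apc, and no group with intact Apc is part of the comparison. The villin promoter limits recombination to intestinal epithelium, and the selection in the labels acts on Apc, not on Prox1. No label says that replicates came from different mice or cultures, so the p-values cover only the spread among these libraries, and that spread may be technical.

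The 14 entries fall in 2 series, and they come from 12 arrays. Replicate 4 of the Apc-Prox1 deleted group of series 1 matched replicate 2 of the Apc-deleted group of series 2 to within 0.02 log2 at every probe. Replicate 3 of the same Apc-Prox1 deleted group likewise matched replicate 2 of the Apc-Prox1 deleted group of series 2. As the labels conflict, these 4 entries were set aside. The comparison rests on 10 libraries: 2 Apc-Prox1 deleted and 4 Apc-deleted in series 1, and 2 Apc-Prox1 deleted and 2 Apc-deleted in series 2. Levels are log2 values recovered from the deposited ratios. The median of an array was 6.78 and its 25th percentile 6.7, so values near 6.7 lie at a floor, and differences that reach it are understated. The recovery gave 1 possible scale for the brightest probes of Notum, Apcdd1, Nkd1 and Axin2. The other 14 member probes had several, of which the smallest was used, and a larger one would give higher levels and larger differences.

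Wnt signalling is switched on when a Wnt ligand binds Frizzled and LRP receptors and stops a complex built on APC and Axin from destroying beta-catenin. Beta-catenin then works with TCF factors on target genes, several of which encode inhibitors that dampen the same pathway, at the ligand, at the receptor or inside the cell. Loss of Apc leaves the pathway on without ligand. In the intestine the pathway maintains the crypt stem cells, and its target genes include Notum, Nkd1, Axin2, Apcdd1, Rnf43 and Znrf3.

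Prox1, the transcription factor deleted between the genotypes, was read by 2 probes. The brighter had levels of 7.85 and 8.29 in Apc-Prox1 deleted and 9.50, 9.42, 10.44 and 9.89 in Apc-deleted libraries of series 1. Series 2 had 8.65 and 9.53 in Apc-Prox1 deleted and 10.91 and 10.05 in Apc-deleted libraries. The groups did not overlap within either series, and Prox1 fell by 1.59 ± 0.22 on the log2 scale (SE; limma over both series, adjusted p = 0.000185). The dimmer Prox1 probe lay close to the floor at 6.90 and 6.97 in Apc-Prox1 deleted and had 7.74, 8.13, 8.90 and 8.74 in Apc-deleted libraries of series 1, and 7.04 and 7.15 in Apc-Prox1 deleted and 9.02 and 8.24 in Apc-deleted libraries of series 2 (difference -1.48 ± 0.19, SE; limma adjusted p = 8.34e-05). The brighter probe thus kept a signal above the floor in every Apc-Prox1 deleted library, and the dimmer one little. The position of either probe relative to the deleted part was not used here. The brighter Apc probe had a difference of 0.13 ± 0.06 (SE; adjusted p = 0.237).

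Over both series 5 of the 9 members tested fell in Apc-Prox1 deleted organoids: Notum, Nkd1, Dkk3, Apcdd1 and Axin2. Among all 13418 genes tested, each read through its brightest probe, 8.73% fell and 7.11% rose. No member probe rose, against 5.94% of all probes tested that did, a share at which none among 17 is not unusual. Among the 17 member probes tested, 9 fell, against 6.79% of all 26342 probes tested that fell (limma, Benjamini-Hochberg adjusted p under 0.05). Within series 1, 8 of the 17 fell, against 4.32% of all probes, and within series 2, 7 of the 17 fell, against 2.41%. The series 1 count was 2 without either Apc-Prox1 deleted library of that series, and the series 2 count was 3 without Apc-deleted replicate 1 and 4 without Apc-Prox1 deleted replicate 1. With no filter on dim probes, 9 of all 18 member probes fell over both series, against 3.5% of 45248 probes. The median difference of the 17 probes over both series was -0.40 log2, against 0.005 for all probes. In both series, 9 of the 17 probes had no overlap between genotypes, with the Apc-Prox1 deleted libraries below, against 7.15% of all probes tested, and these 9 probes belong to the same 5 genes. Among the probes counted, Dkk3 probe 2 passed the brightness filter only through Apc-deleted libraries and so had to differ. Without it, 8 of 16 probes fell over both series, 7 of 16 in series 1 and 7 of 16 in series 2, 8 of 16 had no overlap, and the median difference was -0.30 log2. In RNA of whole organoids, fewer cells of a type and less RNA per cell cannot be told apart.

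**Figure D1:**
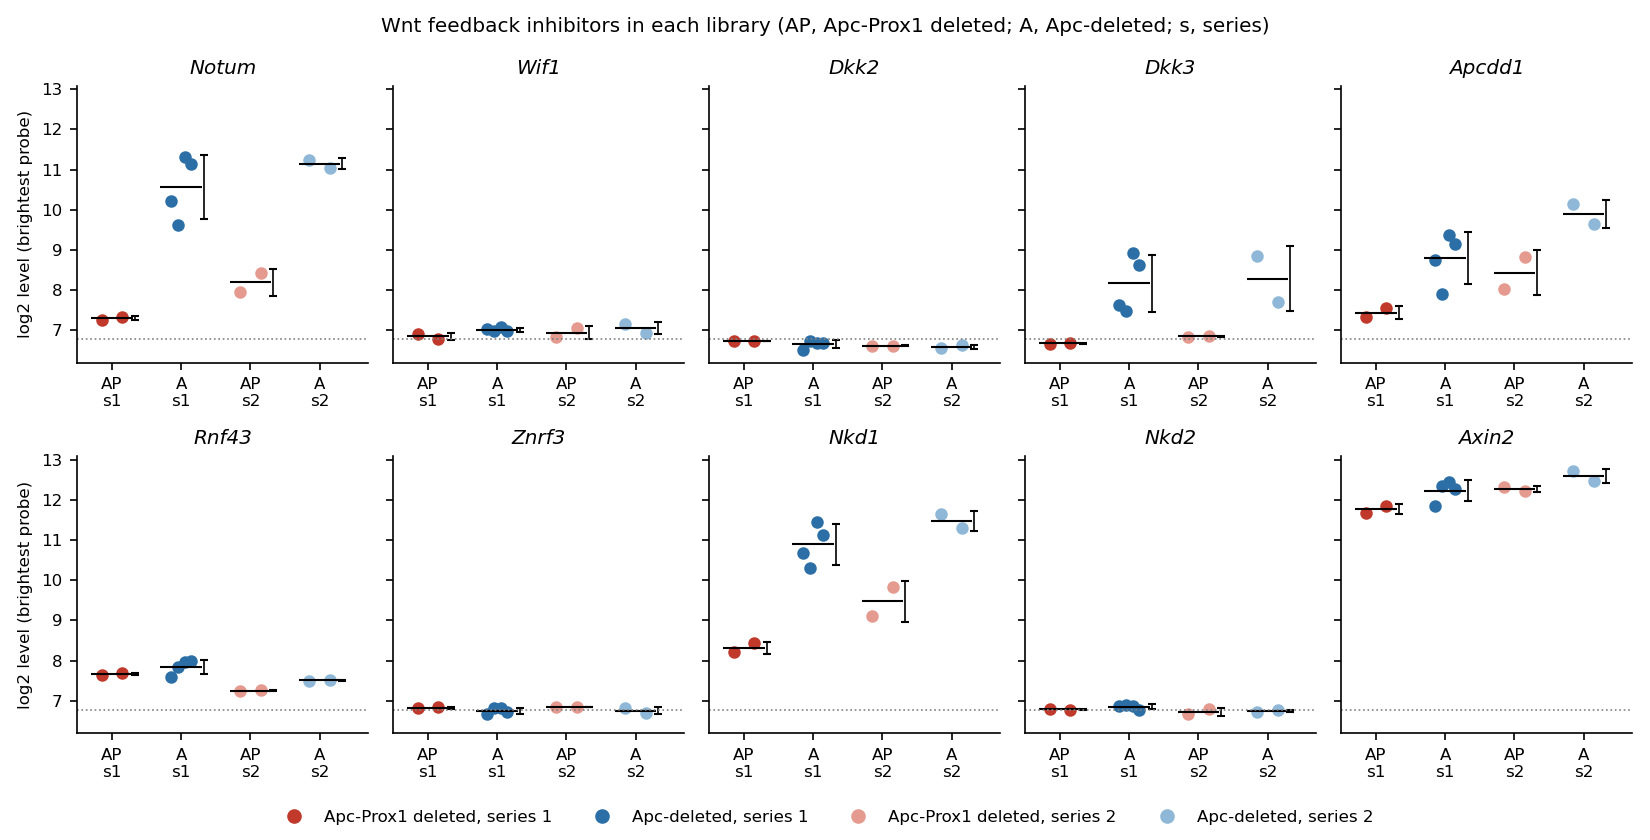
Log2 level of the brightest probe of each of the 10 Wnt feedback inhibitors, with 1 point per library, a line at the group mean, a bar for the SD and a dotted line at the array median of 6.78. Notum in Apc-Prox1 deleted libraries lies between 7.26 and 8.42, below all Apc-deleted libraries, which start at 9.62, while Wif1, Dkk2, Znrf3 and Nkd2 sit near the dotted line in every group.

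Notum is a secreted carboxylesterase that removes the lipid from Wnt ligands and so inactivates them. Its brightest probe had levels of 7.26 and 7.33 in Apc-Prox1 deleted and 10.23, 9.62, 11.31 and 11.15 in Apc-deleted libraries of series 1. In series 2 it had 7.96 and 8.42 in Apc-Prox1 deleted and 11.25 and 11.05 in Apc-deleted libraries. The genotypes were fully apart, by a gap of 2.29 log2 in series 1 and 2.63 in series 2. Notum thus stood at percentile 76.2 of all probes in Apc-Prox1 deleted organoids of series 1 and at percentile 96.0 in Apc-deleted ones.

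Over both series Notum fell by 3.14 ± 0.25 on the log2 scale (SE), an 8.84-fold lower level, with a limma adjusted p of 1.57e-06. The series 1 difference was -3.28 ± 0.33 (SE; limma adjusted p = 6.71e-06) and the series 2 difference -2.96 ± 0.38 (SE; limma adjusted p = 0.000183). This was the largest fall among the members. The other Notum probes were dimmer and also fell. Probe 2 changed by -1.51 (limma adjusted p = 0.000321) and probe 3 by -1.41 (limma adjusted p = 0.000404), and both lay close to the floor in Apc-Prox1 deleted organoids, with means of 6.80 and 6.69 in series 1. Their series 1 calls were lost when either Apc-Prox1 deleted library of that series was left out, with adjusted p of up to 0.11 for probe 2 and 0.137 for probe 3. The series 2 call of probe 2 was lost without Apc-deleted replicate 1 (adjusted p = 0.0533).

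Dkk3, a divergent member of the secreted Dickkopf family, was at or just above the floor in Apc-Prox1 deleted organoids and well above it in Apc-deleted ones. Its brightest probe had 6.67 and 6.68 in Apc-Prox1 deleted and 7.64, 7.49, 8.92 and 8.62 in Apc-deleted libraries of series 1. In series 2 the values were 6.84 and 6.85 in Apc-Prox1 deleted and 8.86 and 7.71 in Apc-deleted libraries. The genotypes were apart by at least 0.82 log2 in both series, while the Apc-deleted libraries themselves spread widely.

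The fitted fall of Dkk3 was 1.47 ± 0.25 on the log2 scale over both series (SE; limma adjusted p = 0.000794), a 2.77-fold lower level, which the floor makes an understatement. It was called within series 1 (-1.50, adjusted p = 0.00642) and within series 2 (-1.44, adjusted p = 0.0372). The series 2 call was lost in 10 of 20 alternatives. It was lost without Apc-deleted replicate 1 of that series, where the difference was -0.86 (adjusted p = 0.367), and without either Apc-Prox1 deleted library of series 1 or of series 2. The series 1 call was lost without either Apc-Prox1 deleted library of series 1 (adjusted p of up to 0.079), as was that of Dkk3 probe 2 (up to 0.111). Dkk3 probe 2 changed by -1.01 over both series (adjusted p = 0.00184). Dkk3 probe 3 stayed between 6.67 and 7.04 in all libraries and was not called (-0.10, adjusted p = 0.179).

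The other secreted members gave no call. Wif1, which binds Wnt ligands, had 6.91 and 6.79 in Apc-Prox1 deleted and 7.02, 6.98, 7.08 and 6.98 in Apc-deleted libraries of series 1, and 6.82 and 7.06 in Apc-Prox1 deleted and 7.15 and 6.94 in Apc-deleted libraries of series 2. Its difference was -0.14 ± 0.06 (SE; limma adjusted p = 0.138), with overlapping genotypes in series 2. Dkk2, a ligand of LRP receptors, lay between 6.51 and 6.74 in all 10 libraries, below the array median, at or near the floor. With no filter on dim probes its difference was 0.06 ± 0.04 (SE; limma adjusted p = 0.505).

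Among the members in the membrane, Apcdd1, a glycoprotein that binds Wnt ligands and LRP receptors, fell. Its brightest probe had 7.33 and 7.55 in Apc-Prox1 deleted and 8.76, 7.90, 9.37 and 9.15 in Apc-deleted libraries of series 1, and 8.04 and 8.83 in Apc-Prox1 deleted and 10.14 and 9.65 in Apc-deleted libraries of series 2. The genotypes did not overlap within a series, by 0.35 log2 in series 1 and 0.82 in series 2. The whole of series 2 was higher, so that its Apc-Prox1 deleted mean of 8.43 ± 0.56 (SD, n = 2) lay close to the Apc-deleted mean of series 1, 8.80 ± 0.65 (SD, n = 4).

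Apcdd1 fell by 1.40 ± 0.23 on the log2 scale over both series (SE; limma adjusted p = 0.000644), a 2.64-fold lower level. The series 1 difference was -1.36 (adjusted p = 0.00811) and the series 2 difference -1.46 (adjusted p = 0.0236). Without either Apc-Prox1 deleted library of series 1 the first of these missed the threshold (adjusted p of up to 0.12), and without Apc-deleted or Apc-Prox1 deleted replicate 1 of series 2 so did the second (adjusted p of up to 0.283). The call over both series did not hold when the 4 conflicting entries were used as labelled, where Apcdd1 changed by -0.73. Nor did it hold when the deposited ratios were tested as they stand (limma adjusted p = 0.884). That run gave -0.16 ± 0.42 in ratio units (SE), where the SE of Notum was 0.03. The cause of the wide error was not tested. Its probes 2 and 3 lay between 6.70 and 7.29 and were not called (-0.18 and -0.11, adjusted p = 0.167 and 0.307).

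Rnf43 and Znrf3 are ubiquitin ligases that remove Frizzled receptors from the cell surface and are themselves held back by R-spondins. The brighter Rnf43 probe had 7.64 and 7.68 in Apc-Prox1 deleted and 7.59, 7.83, 7.96 and 7.98 in Apc-deleted libraries of series 1, and 7.25 and 7.26 in Apc-Prox1 deleted and 7.50 and 7.51 in Apc-deleted libraries of series 2. The genotypes overlapped in series 1 and lay 0.24 log2 apart in series 2, with a difference over both series of -0.21 ± 0.09 (SE; limma adjusted p = 0.126). Rnf43 probe 2 had -0.14 (adjusted p = 0.299), and Znrf3, between 6.67 and 6.85 throughout, had 0.08 ± 0.04 (SE; adjusted p = 0.199).

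Nkd1 is a cytoplasmic protein that binds Dishevelled, the relay between receptor and destruction complex. RefSeq places the 250 bases before its start on the plus strand of build GRCm38.p6 at chr8:88527383-88527632, shown because Nkd1 fell most among the members with such a window. None of the motifs searched was found in it, so it has no capitals.
Nkd1: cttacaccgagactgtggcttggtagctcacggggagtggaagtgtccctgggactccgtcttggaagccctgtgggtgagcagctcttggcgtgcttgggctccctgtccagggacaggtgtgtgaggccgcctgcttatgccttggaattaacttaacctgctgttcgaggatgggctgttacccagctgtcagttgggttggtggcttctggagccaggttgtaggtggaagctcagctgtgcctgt
The motifs were CTTTGA, the core bound by TCF factors, GGGCGG, a GC box, and TATAAA, a core promoter element, each on both strands. None of them is contained in another. CTTTGA was in 0 of the 7 windows of the 6 members with a window used here, against 13.8% of all 32851 windows of the same length. With so few windows, 0 does not stand apart from that share. No window of Notum, Apcdd1, Dkk3 or Znrf3 was searched.

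Nkd1 levels were 8.21 and 8.43 in Apc-Prox1 deleted and 10.68, 10.30, 11.46 and 11.13 in Apc-deleted libraries of series 1. In series 2 they were 9.12 and 9.83 in Apc-Prox1 deleted and 11.66 and 11.31 in Apc-deleted libraries. All Apc-Prox1 deleted libraries lay below all Apc-deleted ones, by 1.87 log2 in series 1 and 1.49 in series 2. Unlike Dkk3, Nkd1 stayed far above the floor in Apc-Prox1 deleted organoids, at percentile 86.2 of probes in series 1 and 92.5 in series 2.

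Nkd1 fell by 2.33 ± 0.21 on the log2 scale over both series (SE; limma adjusted p = 3.37e-06), a 5.03-fold lower level. The differences were -2.57 ± 0.26 in series 1 (SE; limma adjusted p = 7.47e-06) and -2.01 ± 0.30 in series 2 (SE; limma adjusted p = 0.000747). With the 4 conflicting entries used as labelled, the series 2 calls of Nkd1 (adjusted p = 0.103) and Notum (adjusted p = 0.06) were lost. The dimmer Nkd1 probe also fell, by 0.66 ± 0.12 (SE; limma adjusted p = 0.00144). That probe passed only narrowly in series 1 (adjusted p = 0.0497) and missed the threshold there without either Apc-Prox1 deleted library or without Apc-deleted replicate 1, 3 or 4 (adjusted p of up to 0.313). In series 2 it missed the threshold without replicate 1 of either genotype (adjusted p of up to 0.0633). Nkd2, the paralogue, lay between 6.66 and 6.89 in all libraries with a difference of -0.04 ± 0.04 (SE; adjusted p = 0.546).

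Axin2 is the inducible scaffold of the complex that destroys beta-catenin and a common readout of Wnt signalling. It was the brightest member, at percentile 98.6 of probes or higher in every group. The 250 bases before its start, from RefSeq on the plus strand of build GRCm38.p6 at chr11:108920099-108920348, are shown because Axin2 moved little where Nkd1 moved much. Capitals mark its 2 GC boxes.
Axin2: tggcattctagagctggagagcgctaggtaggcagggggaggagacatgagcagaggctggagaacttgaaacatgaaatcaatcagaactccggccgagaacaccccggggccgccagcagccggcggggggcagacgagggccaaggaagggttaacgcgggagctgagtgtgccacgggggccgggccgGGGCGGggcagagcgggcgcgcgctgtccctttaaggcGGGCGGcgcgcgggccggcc
G and C made up 69.2% of the Axin2 window, against 58.4% of the Nkd1 window. A GC box was in 3 of the 7 member windows, against 32.7% of all windows. The motif TATAAA was in 2 of the 7, against 12.4%.

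Axin2 had 11.68 and 11.86 in Apc-Prox1 deleted and 11.86, 12.34, 12.46 and 12.27 in Apc-deleted libraries of series 1, and 12.33 and 12.23 in Apc-Prox1 deleted and 12.72 and 12.48 in Apc-deleted libraries of series 2. The groups were separated by only 0.01 log2 in series 1 and 0.15 in series 2. Axin2 fell by 0.40 ± 0.12 on the log2 scale over both series (SE; limma adjusted p = 0.0302), a 1.32-fold lower level. It was not called within series 1 (-0.46, adjusted p = 0.0807) or series 2 (-0.32, adjusted p = 0.415). The call over both series was lost in 9 of 21 alternatives. Among them were 6 of the 10 runs that each left out 1 library (both Apc-Prox1 deleted libraries and Apc-deleted replicates 3 and 4 of series 1, and Apc-deleted replicate 1 and Apc-Prox1 deleted replicate 3 of series 2), with adjusted p of up to 0.145.

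**Figure D2:**
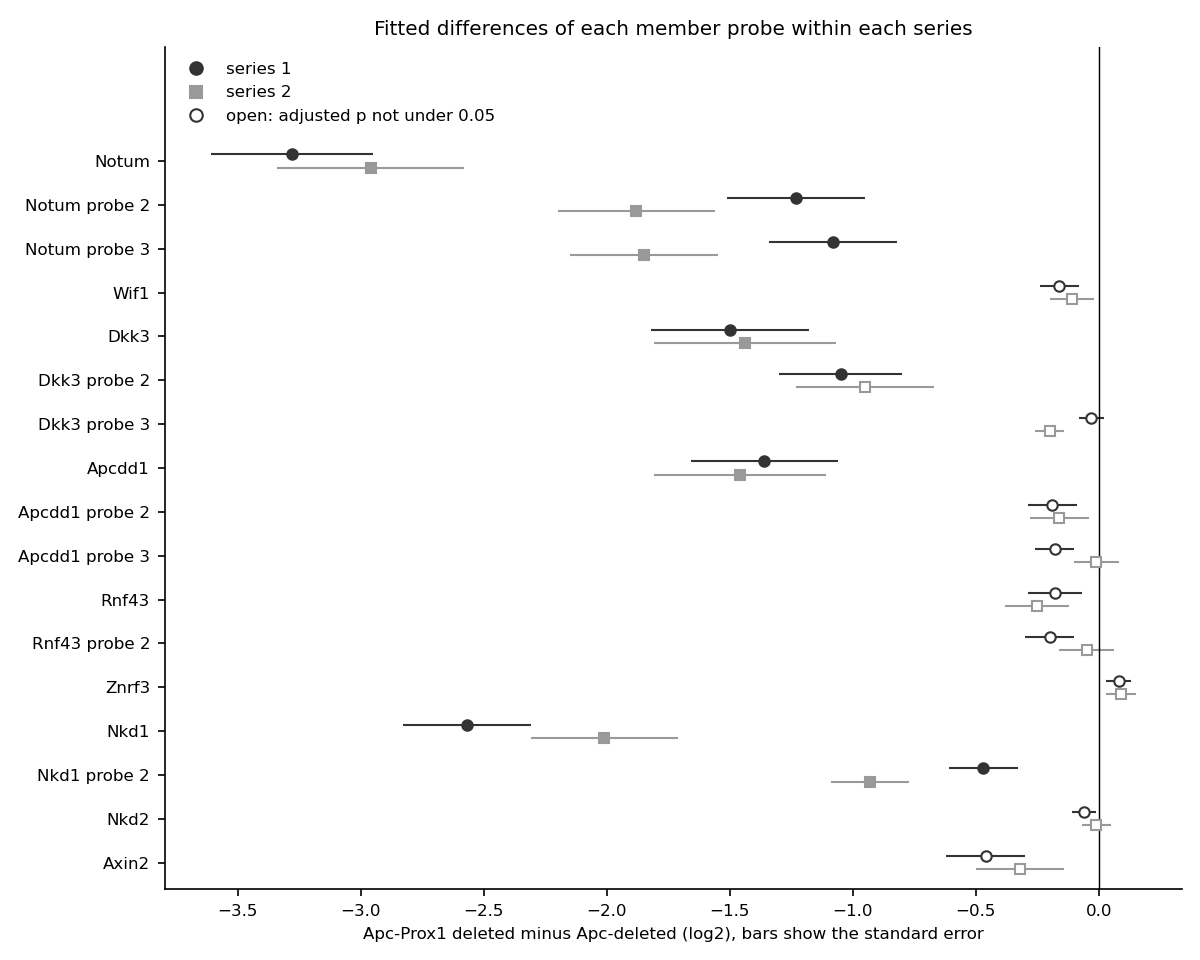
Fitted difference of each of the 17 tested probes, Apc-Prox1 deleted minus Apc-deleted on the log2 scale, within series 1 (circles) and series 2 (squares), with the standard error as bars and filled symbols where the limma adjusted p was under 0.05. The brightest Notum and Nkd1 probes lie at -2.01 or lower in both series, and the bars of Wif1, Rnf43, Znrf3 and Nkd2 lie near 0.

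No difference between the series passed the test. It was called for 0 of the 17 probes by limma, with 1 at an unadjusted p under 0.05, against 0.562% of all probes that passed. That 1 probe was the dimmer Nkd1 probe, with -0.93 in series 2 and -0.47 in series 1 (unadjusted p = 0.0482, adjusted p = 0.688). The brightest probes of Notum, Nkd1, Apcdd1 and Dkk3 shared an order of group means, from Apc-deleted series 2 and Apc-deleted series 1 down to Apc-Prox1 deleted series 2 and Apc-Prox1 deleted series 1. In that order the Apc-deleted libraries of the 2 series overlapped for Notum, Nkd1 and Dkk3 but not for Apcdd1, and the Apc-Prox1 deleted libraries of the 2 series did not overlap for any of the 4.

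Within groups, the order of libraries by the brighter Prox1 probe was shared by the members that fell most, with an exception by the dimmer probe. Among Apc-deleted libraries of series 1, replicates 3 and 4 had the highest Prox1 by either probe and the highest Notum, Nkd1, Dkk3 and Apcdd1, with Notum at 11.31 and 11.15 against 10.23 and 9.62 in replicates 1 and 2. Among Apc-Prox1 deleted libraries of series 2, replicate 3 had more Prox1 than replicate 1 by the brighter probe (9.53 and 8.65) and more Nkd1 (9.83 and 9.12). Counting the 9 pairs of libraries within a group, the order matched that of the brighter Prox1 probe in 9 pairs for the brightest probes of Notum, Nkd1, Dkk3 and Apcdd1. It matched in 6 pairs for Axin2 and 6 for Rnf43, and the median over the other 26341 probes was 4. By the dimmer Prox1 probe it matched in 8 pairs for each of Notum, Nkd1, Dkk3 and Apcdd1, since Apc-deleted replicates 1 and 2 of series 1 stand in the other order there. Axin2 and Rnf43 had 7 pairs each by the dimmer probe. Znrf3, which was not called, matched in 7 pairs by the brighter probe and 8 by the dimmer. Other probes not called also matched by the brighter probe, Dkk3 probe 3 in 8 pairs and Wif1 and Apcdd1 probes 2 and 3 in 7 each. Lower counts came from Rnf43 probe 2 with 5, Dkk2 with 4 and Nkd2 with 3. The share of all probes that match in 9 pairs was not computed. For Dkk3, 2 of the 9 pairs were only 0.01 log2 apart, at or near the floor. These pairs share libraries and the whole-library differences among them, and the counts are a description.

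**Figure D3:**
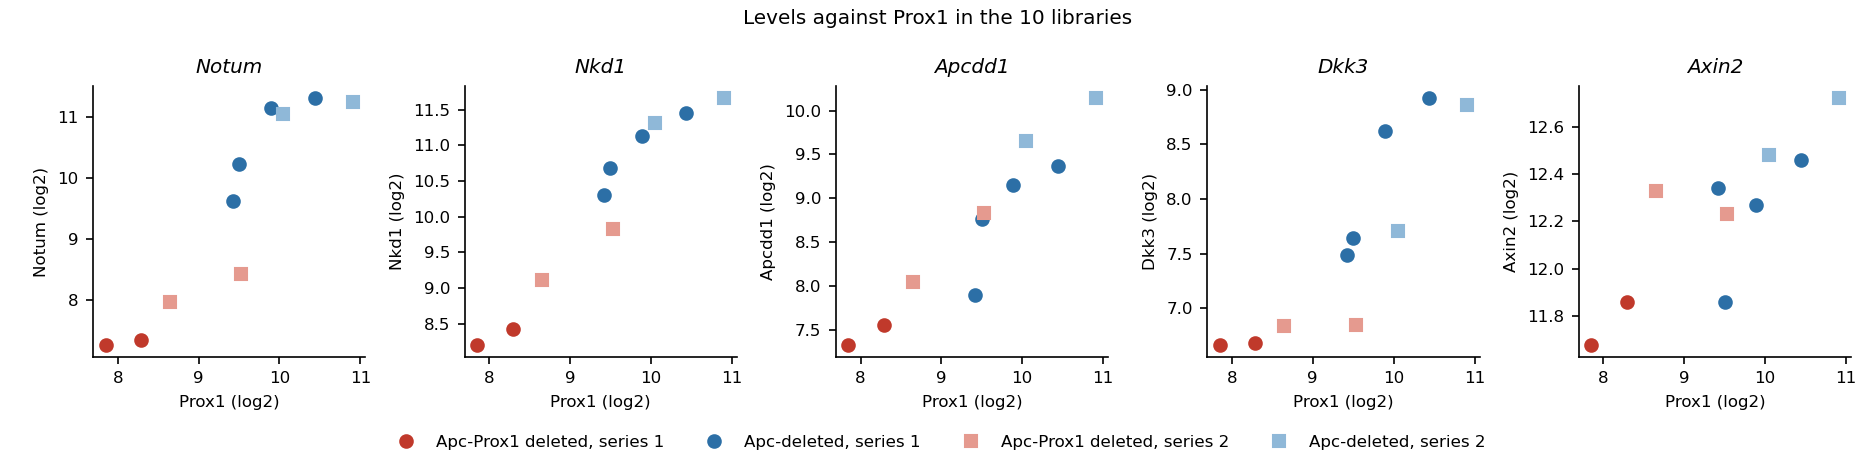
Log2 level of the brightest probe of Notum, Nkd1, Apcdd1, Dkk3 and Axin2 against that of the brighter Prox1 probe, with 1 point per library, circles for series 1 and squares for series 2. The 2 Apc-Prox1 deleted libraries of series 1 have the lowest Prox1, 7.85 and 8.29, and the lowest Nkd1, 8.21 and 8.43.

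Other differences between the libraries ran alongside. Xist, the RNA that coats the inactive X chromosome, was read by its brightest probe. In series 1 it had 6.68 and 6.69 in Apc-Prox1 deleted and 9.30 to 10.21 in Apc-deleted libraries, a difference of -3.16. In series 2 it had 6.66 to 6.68 in Apc-Prox1 deleted and 6.64 to 6.66 in Apc-deleted libraries (0.02, limma adjusted p = 0.981). This probe passed the brightness filter only through Apc-deleted libraries of series 1 and so had to differ there. Xist is normally expressed in female cells, the labels used here give no sex, and in series 1 the Xist difference and the genotype cannot be told apart. In series 2, Xist was near the floor in all libraries, and the brightest probes of Notum, Nkd1, Dkk3 and Apcdd1 had differences of -2.96, -2.01, -1.44 and -1.46. Of 8 Paneth cell markers tested, 3 fell (Defa21, Defa26 and Pla2g2a) and none rose, against 8.73% of all genes tested that fell and 7.11% that rose. Within series 2 only Defa26 was called (-0.99, limma adjusted p = 0.00139). The summed linear level of the 8 markers ran from 31314 to 46106 in Apc-Prox1 deleted and 51390 to 59895 in Apc-deleted libraries of series 1. In series 2 it ran from 35371 to 36545 in Apc-Prox1 deleted and 41794 to 53070 in Apc-deleted libraries. Lyz1, with group means from 14.39 to 14.76, made up much of this sum and was not called (-0.26, adjusted p = 0.0876). The part of Paneth cell number in the fall of the members was not tested.

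The epithelial label matched the markers for the most part. Krt8, Krt19, Vil1, Cdx2, Cdx1 and Cdh1 lay above the array median in all 10 libraries, while the Epcam probe was near the floor in each. Of the 7 epithelial markers, Krt8 and Krt19 rose and Cdx1 fell, where 7.11% of all genes tested rose and 8.73% fell. The sum of the 7 was 24138 to 27837 in Apc-Prox1 deleted and 15994 to 19889 in Apc-deleted libraries of series 1. In series 2 it was 22208 to 23400 in Apc-Prox1 deleted and 17900 to 18229 in Apc-deleted libraries. Of 8 fibroblast markers none lay above the median in all libraries, and their sums of 837 to 858 in Apc-Prox1 deleted and 844 to 873 in Apc-deleted libraries of series 1 lay at the floor, as did 866 to 872 in Apc-Prox1 deleted and 848 to 867 in Apc-deleted libraries of series 2.

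Immune markers gave 2 that rose (Cd14 and Laptm5) and 1 that fell (Cd79b) of 5 tested, with sums of 1074 to 1083 in Apc-Prox1 deleted and 846 to 892 in Apc-deleted libraries of series 1, and 1120 to 1272 in Apc-Prox1 deleted and 988 to 1032 in Apc-deleted libraries of series 2. Endothelial and lymphatic markers gave Pdpn, which rose, and Egfl7, which fell, of 7 tested. Their sums were 1283 to 1388 in Apc-Prox1 deleted and 1434 to 1703 in Apc-deleted libraries of series 1, and 1750 to 1779 in Apc-Prox1 deleted and 1746 to 1970 in Apc-deleted libraries of series 2. For comparison, 7.11% of all genes tested rose and 8.73% fell. The lineage-defining Cdh5 and Lyve1 stayed within 6.73 to 6.91. The part of these markers in the changes of the members was not tested.

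Most other genes of the Wnt pathway did not pass the test, apart from its target genes. Among all 13418 genes tested through their brightest probe, 8.73% fell and 7.11% rose. Of 10 other secreted inhibitors tested, 2 fell and 1 rose. Igfbp4, a secreted binding protein that can hold back Wnt receptors, averaged 11.04 ± 0.12 (SD, n = 2) in Apc-Prox1 deleted and 11.77 ± 0.29 (SD, n = 4) in Apc-deleted organoids of series 1, and 11.74 ± 0.30 in Apc-Prox1 deleted and 12.10 ± 0.28 in Apc-deleted organoids of series 2 (SD, n = 2 each). It fell by 0.58 on the log2 scale over both series (limma adjusted p = 0.0139), and the series 2 difference alone was not called (-0.37, adjusted p = 0.439). Sfrp5, a soluble Frizzled-like decoy, fell by 0.41 (limma adjusted p = 0.0342), and Kremen2, a co-receptor of Dickkopf proteins, rose by 0.32 (limma adjusted p = 0.0113). Sfrp5 was not called within series 2 (-0.23, adjusted p = 0.573), and Kremen2 was called within neither series.

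Of 15 Wnt ligands and R-spondins tested, 1 fell and 2 rose. Wnt6 averaged 8.71 ± 0.42 (SD, n = 2) in Apc-Prox1 deleted and 10.22 ± 0.14 (SD, n = 4) in Apc-deleted organoids of series 1, and 9.36 ± 0.30 in Apc-Prox1 deleted and 10.59 ± 0.10 in Apc-deleted organoids of series 2 (SD, n = 2 each). It fell by 1.39 on the log2 scale over both series (limma adjusted p = 1.05e-05). Wnt7b rose by 0.55 over both series (limma adjusted p = 0.000897). It was called within series 1 (0.81, adjusted p = 4.55e-06) and not within series 2 (0.21, adjusted p = 0.255). Wnt4 rose by 0.11 (limma adjusted p = 0.0177) but was called within neither series, and its values all lay between 6.69 and 6.89.

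Of 13 receptors tested, Lgr5 and Fzd2 fell and Lrp6 rose. Fzd2 fell by 0.20 (limma adjusted p = 0.0117), with all values between 6.64 and 7.16. It was not called within series 1 (-0.15, adjusted p = 0.186). Lrp6 rose by 0.22 (limma adjusted p = 0.0153), with all values between 6.91 and 7.32. It was not called within series 2 (0.16, adjusted p = 0.375). Lgr5, the R-spondin receptor of crypt stem cells, averaged 8.99 ± 0.03 (SD, n = 2) in Apc-Prox1 deleted and 10.15 ± 0.23 (SD, n = 4) in Apc-deleted organoids of series 1, and 9.60 ± 0.42 in Apc-Prox1 deleted and 10.25 ± 0.10 in Apc-deleted organoids of series 2 (SD, n = 2 each). It fell by 0.94 on the log2 scale over both series (limma adjusted p = 0.000526), and the series 2 difference alone was not called (-0.64, adjusted p = 0.116). Of 13 tested genes of the destruction complex and its transducers, only Btrc, which tags beta-catenin for destruction, passed (-0.32, adjusted p = 0.0225). Btrc was called within neither series. Of 13 tested nuclear effectors, only Tcf7l1, a TCF factor that mostly represses, passed (-0.93, adjusted p = 6.57e-05).

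Among 15 other Wnt target genes tested, 9 fell, 2 rose and 4 did not pass, with a median of -0.38 log2. Of all genes tested, 8.73% fell and 7.11% rose. The 9 include Prox1 itself, which was deleted between the genotypes, so its fall is no result about the targets. The list was chosen with earlier results of these data known. It shares Lgr5 and Fzd7 with the receptors and Lef1 with the nuclear effectors. Sox4 fell by 1.04 (limma adjusted p = 1.62e-05), Ascl2, a stem cell transcription factor, by 0.99 (limma adjusted p = 0.00367), and Sp5, a transcription factor, by 0.91 (limma adjusted p = 0.00127). Tnfrsf19 fell by 1.06 (limma adjusted p = 4.62e-05) and Rgmb by 0.93 (limma adjusted p = 7.24e-05), and both were called within each series, as was Sox4. Ephb3 fell by 0.16 (limma adjusted p = 0.0431), with values of 6.85 to 7.16, and was called within neither series. The 4 that did not pass were Myc (0.08), Fzd7 (0.02), Lef1 (-0.07) and Mmp7 (-0.07), with Lef1 and Mmp7 near the floor. Ascl2 was not called within series 1 (-0.79, adjusted p = 0.0734), nor Sp5 within series 2 (-0.42, adjusted p = 0.296). Sox9, a crypt transcription factor, fell by 0.38 on the log2 scale (limma adjusted p = 0.0128) but was called within neither series. Moving the other way, Cd44, an adhesion receptor, rose by 0.96 (limma adjusted p = 0.000357) and Ccnd1, cyclin D1, by 0.74 (limma adjusted p = 0.00286). Ccnd1 was not called within series 2 (0.45, adjusted p = 0.277). Cd44 averaged 11.46 ± 0.02 (SD, n = 2) in Apc-Prox1 deleted and 10.46 ± 0.36 (SD, n = 4) in Apc-deleted organoids of series 1, and 11.58 ± 0.26 in Apc-Prox1 deleted and 10.68 ± 0.09 in Apc-deleted organoids of series 2 (SD, n = 2 each).

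**Figure D4:**
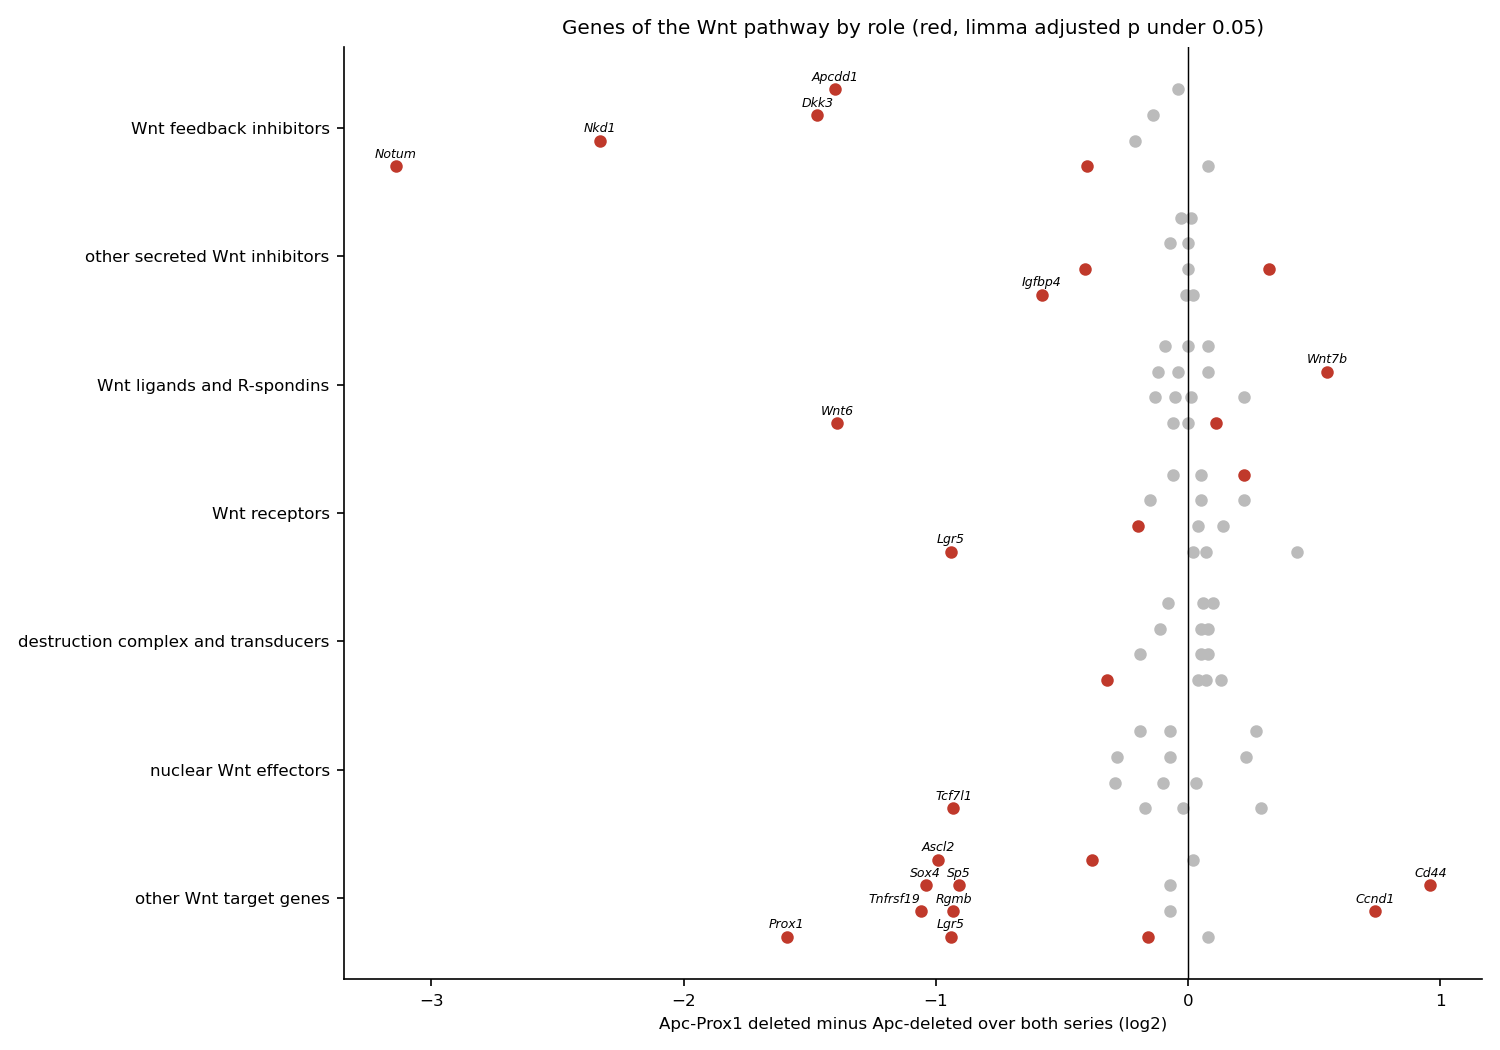
Difference over both series on the log2 scale, Apc-Prox1 deleted minus Apc-deleted, of the brightest probe of each tested gene, in rows by role, red where the limma adjusted p was under 0.05 and named where it exceeded 0.5 in size. Notum and Nkd1, at -3.14 and -2.33, lie farthest to the left, and Cd44 and Ccnd1, at 0.96 and 0.74, farthest to the right.

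The genes whose pattern over the 10 libraries was most like a member's were found by the root mean square difference of log2 levels, each centred on its series. For Notum these were Slc30a2 at 0.44, Vim at 0.47, Bex4 at 0.50, Sbspon at 0.51 and Pla2g2a at 0.71, and Nkd1 among the members was as near as Slc30a2, at 0.44. Nkd1 was closest to Slc30a2 at 0.26 and Bex4 at 0.27, followed by Dmpk, Prox1 and Tgfbi between 0.39 and 0.40. Vim, which encodes the intermediate filament vimentin, fell by 3.60 ± 0.39 on the log2 scale (SE; limma adjusted p = 2.18e-05), further than Notum.

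Dkk3 was closest to Rdh9 at 0.19, Tgfbi at 0.20, Aldh1l2, Vldlr and Hdc, and Apcdd1 was its nearest member at 0.30. Apcdd1 was closest to Cyp4b1-ps2 at 0.21, Ifitm1, Camk2n1, Fbp1 and Gstm6. Axin2, with its small range, was closest to Tmx4 and Snx13 at 0.08 and Anp32e, Fam76b and Zfp943 at 0.09. Since likeness here includes the genotype difference, these names add no independent evidence on the members.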

How the data were processed

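RNA of 14 entries, 2 genotypes in 2 series, was measured on Illumina arrays. Per the labels' protocols, DNase-treated column RNA was turned into biotinylated cRNA. The authors' deposited table gives a ratio per probe. Within each series the deposited ratio has a median of 1 for every probe, and each probe's ratios become steps of 0.01 when multiplied by 1 number. They were read as log2 values divided by the probe's median. The background correction and normalization are not given in the sources used here. The log2 base was taken from the recovered range of 6.35 to 15.23. Divisors were searched from 6 to 16 in steps of 0.005, which recovered 45248 probes and left 33 unsettled, and 5801 had 1 divisor in both series. Among simulated probes with settled divisors, 100.0% were recovered. The simulated ratios were built in the assumed form and range. They test neither the form of the deposited ratios nor the choice of the smallest divisor in them. The non-normalized table was not used, because its 28 value columns match no label, so detection p-values were not used. Precision is limited by how few arrays there are.

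Values were quantile normalized over 14 entries. Entries within 0.02 log2 at all probes were taken as copies, among 91 pairs. Probes above 6.78, the array median, on at least 3 of the 10 libraries were kept (26342 of 45248). Models were fitted with limma 3.58.1 in R 4.3.3 (lmFit, eBayes with a trend). The fit over both series had series as a term (7 residual degrees of freedom), and a fit of 4 groups (6) gave each series and their difference. Adjusted p-values are Benjamini-Hochberg over all probes tested, at 0.05. Alternatives changed the normalization, scale, filter, variance prior, entries, libraries and replicate block. The main fits did not treat replicate numbers as pairs. Deviations of same-numbered libraries correlated at -0.025 to 0.191. In series 2 each group held 2 libraries, so both of its values had to be equal (0.091). With so few values, pairing was not excluded.

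The members and lists were chosen with earlier results of these data known. The text names all member probes, Prox1 and Apc as the deleted genes, genes of the pathway and marker lists and, for each member whose brightest probe passed over both series, the 5 genes most like it. Xist was named after its values were seen. A gene is read through its brightest probe. Of the probes recorded in the annotation, 34885 had 1 symbol, 18 several and 10378 none. Promoter windows came from RefSeq, were searched for 6 of the 10 members, and are printed for Nkd1 and Axin2.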

Additional observations from a re-analysis of the deposited data

How the results depend on the processing

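Counts of called probes were 3353 over both series, 2191 in series 1, 1085 in series 2 and 148 for the difference between series. Over both series the count moved to 1996 with the replicate block, 1465 with probes of 1 possible divisor only and 2193 with Apc-deleted replicates 1 and 2 of series 1 only, the last chosen after seeing the data. The series 1 count moved to 958 with 1 divisor and 1427 with those replicates. In series 2 it moved to 369 with cyclic loess, 393 with values as recovered, 360 with the deposited ratios, 184 with all 14 entries as labelled, 339 with 1 divisor and 568 with series 2 alone. The difference between series moved to 59 with the ratios, 64 with the filter met on all libraries, 53 with all 14 entries, 229 with the replicate block and 21 with 1 divisor. Leaving out 1 library gave 1916 to 3852 over both series, 738 to 2610 in series 1, 413 to 1260 in series 2 and 66 to 169 for the difference.

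The 9 member probes that fell over both series became 5 with the filter on all libraries, 4 with 1 divisor, and 8 to 10 without 1 library. The 8 of series 1 became 4 with that filter, 5 with all 14 entries, 3 with the robust prior, 3 with 1 divisor, 5 with those replicates, and 2 to 9 without 1 library. The 7 of series 2 became 2 with the ratios, 4 with that filter, 0 with all 14 entries (limma), 3 with the robust prior, 3 with 1 divisor, and 3 to 8 without 1 library. The filter on all libraries and the 1 divisor limit test fewer probes by construction. For the rest the cause was not tested. The direction turned only for probes that were not called. Nkd2 had 0.01 over both series and 0.08 in series 2, and Apcdd1 probe 3 had 0.00 in series 2, with all 14 entries. Dkk3 probe 3 had 0.02 in series 1 with the replicate block and with those replicates. Without 1 library, series 2 ran from -0.23 to 0.01 for Wif1, -0.15 to 0.06 for Rnf43 probe 2, -0.09 to 0.06 for Nkd2 and -0.03 to 0.00 for Apcdd1 probe 3, and series 1 from -0.07 to 0.01 for Dkk3 probe 3. Notum and Nkd1 kept their call over both series in all 21 alternatives. Notum lay between -3.45 and -2.36 log2 in all but the run on the deposited ratios, whose unit differs and which gave -0.33 for Notum, both series. The replicate block also lost the Axin2 call over both series and, in series 1, those of Notum probe 3 and Nkd1 probe 2.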
